A study of Mus musculus with 30 samples.

Results

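The nuclear-encoded subunits of mitochondrial respiratory complexes I to IV were examined in mice with a mutated growth hormone receptor. The 49 genes were taken by their symbol in the platform's annotation from a list of subunits, which was drawn up with earlier results of these data known. All 49 were measured, by 72 of the 46643 probes, out of 19406 genes named on the array. They comprised 29 genes of complex I, 4 of complex II, 7 of complex III and 9 of complex IV. The array held a single probe for 30 of them, 2 probes for 16, 3 for 2 and 4 for 1.

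All animals were male, 4 months old and fasted overnight before liver and subcutaneous fat were taken. The 5 receptor genotypes compared were wild type (WT), a receptor truncated at amino acid 569, one truncated at amino acid 391, one altered in its Box1 region, and a knockout (KO). A mouse line was made with each alteration, and the labels name no promoter or cell type that would limit it to a tissue. There were 3 Illumina bead arrays for every genotype in each tissue, 30 in all. Whether an animal gave more than 1 array is not stated, so the p-values measure the spread between arrays, which may be technical.

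The respiratory chain passes electrons from NADH through complex I and from succinate through complex II to ubiquinone, then through complex III and cytochrome c to complex IV, which reduces oxygen. Its subunits come from nuclear genes, which were measured here, and from the mitochondrial genome, whose 13 protein-coding genes were not among those named on the array. Liver is rich in mitochondria, and fasting raises its dependence on their oxidation of fatty acids. Growth hormone signals through the kinase JAK2, which binds the receptor at Box1, and through STAT5, whose docking tyrosines lie in the tail that truncation at 391 removes. WT and 569 receptors were therefore set, as a pair, against 391, Box1 and KO. The pairing does not mean that the 569 receptor signals as fully as WT.

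Every deposited value was a ratio to that probe's median over the 15 arrays of its tissue, so a ratio of 1 is the middle array and no absolute level is known. Nothing below compares levels between genes or between tissues, and tissue identity cannot be read from marker levels. Differences are given on the log2 scale with their standard error (SE), and a gene is called where limma's adjusted p (Benjamini-Hochberg over all probes) was under 0.05. A gene with several probes is represented by the probe that varied most over the arrays of the tissue.

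Within each tissue WT shared a slide with 569, and 391 shared one with KO, while the Box1 arrays of both tissues lay on a slide of their own. Slide and genotype cannot be told apart in the comparisons that cross slides, including the one of 391, Box1 and KO with WT and 569. On the 2 Ghr probes the liver arrays labelled KO stood at 1.09 to 1.51 and 0.81 to 1.4, and WT at 0.92 to 1.27 and 0.61 to 1.14. The Box1 livers stood at 0.23 to 0.3 on the first of these probes, below every other liver, and at 0.96 to 1.28 on the second. In fat the arrays labelled KO ran from 0.29 to 1.12 and 0.68 to 1.26, against 1.09 to 1.97 and 1 to 2.05 in WT, with overlap on both probes. Ghr was thus low in the Box1 livers on 1 probe and not low in the livers labelled KO, so it does not check the KO label, and whether either probe lies in the deleted stretch is not known here. Igf1, a liver target of the hormone, stood at 18.39 to 20.72 in the WT livers, 11.24 to 14.44 in the 569 livers and 0.43 to 1.15 in the other 9. Replicate 2 of the 391 livers held transcripts of exocrine pancreas and skeletal muscle, with Clps at 56.85 and Acta1 at 70.63, and replicate 3 held pancreatic ones, with Clps at 16.4. Counts of called liver subunits and of the gene lists other than cell markers are therefore given without them too, and cell markers by their medians. Other counts, among them those of probes, of groups that do not overlap, after quantile normalization and between tissues, are not given without both of them.

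Promoter windows of RefSeq on mouse build GRCm38.p6, from 250 bases before to 50 after the start, were supplied for 39 of the 49 genes. Cox5b and Ndufb8 are shown because their liver transcripts passed the test in the 391, Box1 and KO comparisons alike. The 250 bases before each start, on the gene's strand, read as follows, for Cox5b on the plus strand of chr1:36691237-36691486 and for Ndufb8 on the minus strand of chr19:44555443-44555692.
Cox5b: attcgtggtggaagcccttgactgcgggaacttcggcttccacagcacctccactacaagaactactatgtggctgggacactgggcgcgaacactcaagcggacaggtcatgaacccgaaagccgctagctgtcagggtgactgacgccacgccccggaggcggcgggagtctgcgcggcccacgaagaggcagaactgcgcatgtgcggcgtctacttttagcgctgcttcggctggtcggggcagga
Ndufb8: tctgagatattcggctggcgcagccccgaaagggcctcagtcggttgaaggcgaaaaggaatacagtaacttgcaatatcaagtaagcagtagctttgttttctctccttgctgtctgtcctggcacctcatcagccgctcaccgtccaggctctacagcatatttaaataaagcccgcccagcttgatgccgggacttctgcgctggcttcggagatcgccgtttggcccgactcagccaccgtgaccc

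Patterns tied to factors of mitochondrial gene transcription were sought on both strands of the windows, and 19 of the 39 genes held at least 1 of the 4. The YY1 letters AAGATGGC were in 7 of the 39 (17.9%), against 3.19% of 27025 genes. All 7 matches read along the gene, began 23 to 39 bases after the start and contain an ATG. The ETS letters CCGGAAG, read by GABP, were in 9 (23.1%, against 9.93% of all genes). The NRF1 core GCGCATGC was in 5 (12.8%, against 3.05%), and in Uqcrc1 its matches on both strands overlap. The ERR letters TCAAGGTCA were in 1 gene, Sdhd (2.56%, against 0.466%). Such a match describes the letters of the window and is no binding site. The pieces below show matches, in capitals, in genes that rose in the 391, Box1 and KO livers against WT and 569, on the strand of the gene, which is plus for Ndufs7, Ndufb7 and Uqcrc1 and minus for the others.
Ndufb8 (YY1, chr19:44555393-44555422): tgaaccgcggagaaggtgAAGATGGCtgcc
Ndufa9 (YY1, chr6:126849097-126849126): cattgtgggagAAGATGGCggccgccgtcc
Ndufs7 (YY1, chr10:80249462-80249491): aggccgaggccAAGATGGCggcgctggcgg
Ndufc1 (YY1, chr3:51408915-51408944): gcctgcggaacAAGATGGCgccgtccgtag
Ndufb7 (ETS, chr8:83566727-83566756): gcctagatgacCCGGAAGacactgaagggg
Ndufs3 (ETS, chr2:90904730-90904759): cccgcgtccgcCCGGAAGaagagtcactgc
Cox6b1 (ETS, opposite strand, chr7:30626124-30626153): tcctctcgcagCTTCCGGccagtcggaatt
Ndufa8 (NRF1, opposite strand, chr2:36049328-36049357): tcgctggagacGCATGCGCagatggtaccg
Uqcrc1 (NRF1, chr9:108936667-108936696): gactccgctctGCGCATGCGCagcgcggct
Of the 39 genes with a window, 25 were called in that liver comparison and 14 were not. The YY1 letters were in 6 of the 25 and 1 of the 14, the ETS letters in 7 and 2, and the NRF1 core in 3 and 2.

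In liver the subunits of all 4 complexes were higher with the 391, Box1 and KO receptors than with WT and 569, by a median of 0.39 on the log2 scale. All 49 differences were positive, against a median of 0.04 over all genes. Of the 49 genes 31 rose and none fell, while 13.9% of all genes were called higher and 1.36% lower. In 11 of the 49 all 9 arrays of 391, Box1 and KO lay above all 6 of WT and 569, which held for 2.48% of all genes. The rises took in 19 of 29 genes of complex I, 2 of 4 of complex II, 5 of 7 of complex III and 5 of 9 of complex IV. Of the 72 probes 38 were called (9.61% of all probes either way). A test for any difference among the 5 genotypes called 21 of the 49 (9.07% of all genes), and 12 without 569 replicate 2 or 13 without 569 replicate 3. Without the 391 arrays with foreign transcripts 35 genes rose, 30 of them among the 31, with a median of 0.47 and 16.6% of all genes higher, and the test for any difference called 25.

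Markers of liver cells were read in the same comparison. Of 9 hepatocyte markers Alb and Cps1 rose and Serpina1a fell, with a median of 0.12, and their mean ratio was 0.807 to 0.996 in the WT and 569 livers and 0.926 to 1.14 in the others. Of 8 endothelial markers Emcn, Pecam1 and Vwf rose, with a median of 0.28 and mean ratios of 0.811 to 1.14 and 0.983 to 1.21. Of 9 lymphocyte markers Cd79b rose, and of 10 macrophage markers none was called, with a median of 0.26. Over all genes 13.9% were called higher and 1.36% lower. Without the 391 arrays with foreign transcripts the medians were 0.19 for hepatocyte, 0.30 for endothelial, 0.17 for lymphocyte and 0.27 for macrophage markers. The genes called in each of these lists then changed. The 14 exocrine pancreas markers were all positive with none called, at a median of 0.66, which became 0.04 without those 391 arrays. Their part in the subunit values was not tested, and fewer cells of a type and less RNA per cell cannot be told apart in whole tissue.

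The plot of the 49 genes by array shows how the livers ranked. The median log2 ratio of the 49 was 0.00, -0.47 and -0.25 in the 3 WT livers and -0.18, -0.47 and -0.25 in the 569 livers. It was 0.32, 0.00 and 0.01 in the 391 livers, 0.07, 0.14 and 0.12 in the Box1 livers and 0.06, 0.18 and 0.03 in the KO livers. WT replicate 1 was thus the only WT or 569 liver whose median reached that of a 391 array. In WT replicate 2 all 49 genes lay below the tissue median, and in 391 replicate 1 none did. That 391 array had the highest median of all livers and is the single 391 array free of foreign transcripts. Fits without the others therefore have it alone as the 391 group.

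**Figure D1:**
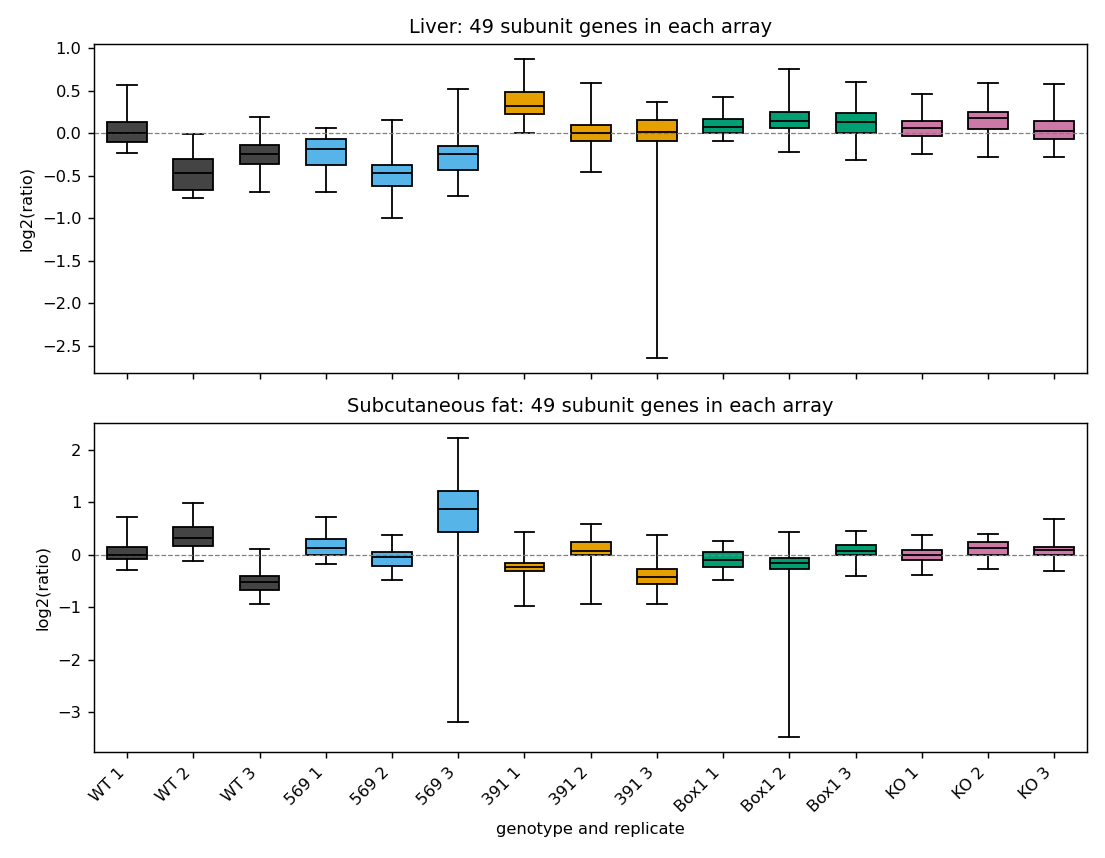
Log2 ratio of the 49 subunit genes in each array, liver above and subcutaneous fat below, by genotype and replicate; boxes span the quartiles with the median as a line, and whiskers reach the lowest and highest gene. In liver the WT and 569 medians lie between -0.47 and 0.00 and the others between 0.00 and 0.32, while in fat 569 replicate 3 stands highest, at 0.86.

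Complex I oxidises NADH in a peripheral arm and pumps protons in a membrane arm. Ndufv1 carries the flavin that takes electrons from NADH, and its liver ratios were 0.86, 0.65 and 0.71 in WT, 0.76, 0.50 and 0.66 in 569, 1.3, 1.07 and 1.08 in 391, 1.0, 1.03 and 1.15 in Box1, and 1.1, 1.08 and 0.94 in KO. All 9 arrays of the last 3 genotypes were above all 6 of WT and 569. The difference was 0.66 ± 0.09 (limma adjusted p = 0.000399). Ndufv2, its neighbour with an iron-sulfur cluster, rose by 0.65 ± 0.10 (adjusted p = 0.001), again with no overlap.

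Ndufs1, the largest subunit of the same arm and also an iron-sulfur protein, was close to level. Its ratios ran from 0.93 to 0.99 in WT, 0.94 to 1.03 in 569, 1.08 to 1.17 in 391, 0.86 to 1.01 in Box1 and 0.82 to 1.21 in KO. The difference was 0.08 ± 0.07 (adjusted p = 0.649), with a 95% interval of -0.08 to 0.24. Among the subunits that lead electrons on to ubiquinone, Ndufs3 rose by 0.64 ± 0.12 (adjusted p = 0.0027), Ndufs7 by 0.50 ± 0.08 (adjusted p = 0.000829) and Ndufs8 by 0.44 ± 0.11 (adjusted p = 0.0168).

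Ndufb8 and Ndufb7, accessory subunits of the membrane arm, were among the larger rises of complex I. Ndufb8 ratios were 0.85, 0.64 and 0.62 in WT, 0.82, 0.76 and 0.66 in 569, 1.41, 0.89 and 1.0 in 391, 1.06, 1.1 and 1.14 in Box1, and 1.13, 1.19 and 1.01 in KO. The 9 arrays were all above the other 6, and the difference was 0.61 ± 0.10 (adjusted p = 0.0013). Ndufb7 ratios were 0.90, 0.68 and 0.68 in WT, 0.62, 0.65 and 0.63 in 569, 1.22, 1.26 and 1.19 in 391, 1.08, 1.0 and 1.32 in Box1, and 1.08, 1.17 and 0.91 in KO. The groups did not overlap, though KO replicate 3 stood only just above WT replicate 1, and the difference was 0.72 ± 0.08 (adjusted p = 7.07e-05).

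Ndufa9, an accessory subunit at the junction of the arms, rose by 0.59 ± 0.09 (adjusted p = 0.000741) with no overlap. Ndufa8, an accessory subunit facing the intermembrane space, had its highest ratios in 391, at 1.83, 1.51 and 1.2, against 0.90, 0.83 and 0.81 in WT. In KO it stood at 0.98, 1.2 and 0.98, so that 2 of its arrays lay below the highest 569 array at 1.0. The other called genes of complex I were Ndufa2, Ndufa3, Ndufa5, Ndufa7, Ndufa10, Ndufb3, Ndufb5, Ndufb6, Ndufc1 and Ndufs4, with differences from 0.26 (Ndufa3) to 0.55 (Ndufc1).

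The 10 genes of complex I that were not called had differences from 0.06 (Ndufc2) to 0.27 (Ndufb9). Ndufb10 was the most scattered of them. In 391 its ratios were 1.66, 1.26 and 0.16, so that replicate 3 lay far below every other liver, and in the other genotypes they ran from 0.73 to 1.68. A lone low value of this gene also occurred in fat, where Box1 replicate 2 stood at 0.09 beside 0.92 and 1.0.

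Complex II, succinate dehydrogenase, has a flavoprotein and an iron-sulfur protein held by 2 membrane anchors, and it is also an enzyme of the citric acid cycle. The iron-sulfur subunit Sdhb had ratios of 0.93, 0.62 and 0.75 in WT, 0.69, 0.67 and 0.74 in 569, 1.57, 1.0 and 1.16 in 391, 1.02, 1.06 and 0.97 in Box1, and 1.21, 1.5 and 1.18 in KO. No array of the last 3 genotypes fell within the range of WT and 569, and the difference was 0.69 ± 0.10 (adjusted p = 0.000672). The anchor Sdhc rose by 0.56 ± 0.10 (adjusted p = 0.0017), with 391 replicate 2 at 0.92 and Box1 replicate 3 at 0.91 inside the WT range.

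The flavoprotein Sdha was close to level, at 0.90 to 0.99 in WT, 0.90 to 1.11 in 569, 0.93 to 1.12 in 391, 1.0 to 1.24 in Box1 and 0.91 to 1.04 in KO. Its difference was 0.06 ± 0.07 (adjusted p = 0.705, 95% interval -0.08 to 0.21). Sdhd, the other anchor, differed by 0.30 ± 0.15 (adjusted p = 0.277), with WT replicate 1 at 1.22 above most of the mutants.

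Complex III hands electrons from ubiquinol to cytochrome c. Its core proteins Uqcrc1 and Uqcrc2 rose by 0.58 ± 0.09 (adjusted p = 0.000619) and 0.62 ± 0.11 (adjusted p = 0.0019), each with no overlap. Uqcrc1 ratios were 0.85, 0.62 and 0.80 in WT, 0.74, 0.55 and 0.72 in 569, 1.21, 0.95 and 1.19 in 391, 1.0, 1.04 and 1.01 in Box1, and 1.0, 1.04 and 1.06 in KO. The small subunit Uqcrq rose by 0.57 ± 0.08 (adjusted p = 0.000306). Its Box1 livers were tightly grouped, at 1.3, 1.25 and 1.27, whereas KO replicate 3, at 0.85, lay within the range of the WT and 569 livers.

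Cyc1, the cytochrome c1 of the complex, rose by 0.39 ± 0.09 (adjusted p = 0.0121) and Uqcrh by 0.44 ± 0.10 (adjusted p = 0.0115). Uqcrfs1, the Rieske iron-sulfur protein, had the smallest difference of the 49, 0.03 ± 0.07 (adjusted p = 0.886). Its ratios were 1.05, 0.83 and 0.83 in WT, 0.94, 1.11 and 1.01 in 569, 1.07, 0.84 and 1.0 in 391, 0.94, 1.03 and 1.07 in Box1, and 0.89, 0.93 and 1.05 in KO, so the genotypes overlapped throughout. Uqcrb differed by 0.28 ± 0.10 (adjusted p = 0.0805).

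Complex IV, cytochrome c oxidase, carries its nuclear subunits around a core made in the mitochondrion. Cox5b, a zinc-binding subunit, had ratios of 0.93, 0.61 and 0.62 in WT, 0.63, 0.71 and 0.66 in 569, 1.36, 1.0 and 0.99 in 391, 1.09, 1.19 and 1.19 in Box1, and 1.24, 1.14 and 1.03 in KO. WT replicate 1 came near the 391 arrays without reaching them. The difference of 0.72 ± 0.10 (adjusted p = 0.000329), a fold of 1.65, was the largest of the 49. Cox6b1, which faces the intermembrane space, rose by 0.50 ± 0.08 (adjusted p = 0.000797). Its KO livers were highest, at 1.37, 1.33 and 1.25, while Box1 replicate 3, at 0.98, and 391 replicate 2, at 0.96, lay below WT replicate 1 at 1.0.

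Cox5a rose by 0.47 ± 0.09 (adjusted p = 0.0051), Cox7c by 0.36 ± 0.08 (adjusted p = 0.0068) and Cox4i1 by 0.28 ± 0.06 (adjusted p = 0.0067). Cox4i1, a large nuclear subunit, lay at 1.0 to 1.21 in the 391 and Box1 livers but at 0.95, 1.0 and 0.90 in KO, among the WT values of 1.04, 0.92 and 0.88. Cox6a1, Cox6c, Cox7a2 and Cox7b were not called, with differences between 0.18 (Cox7a2) and 0.30 (Cox6a1).

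**Figure D2:**
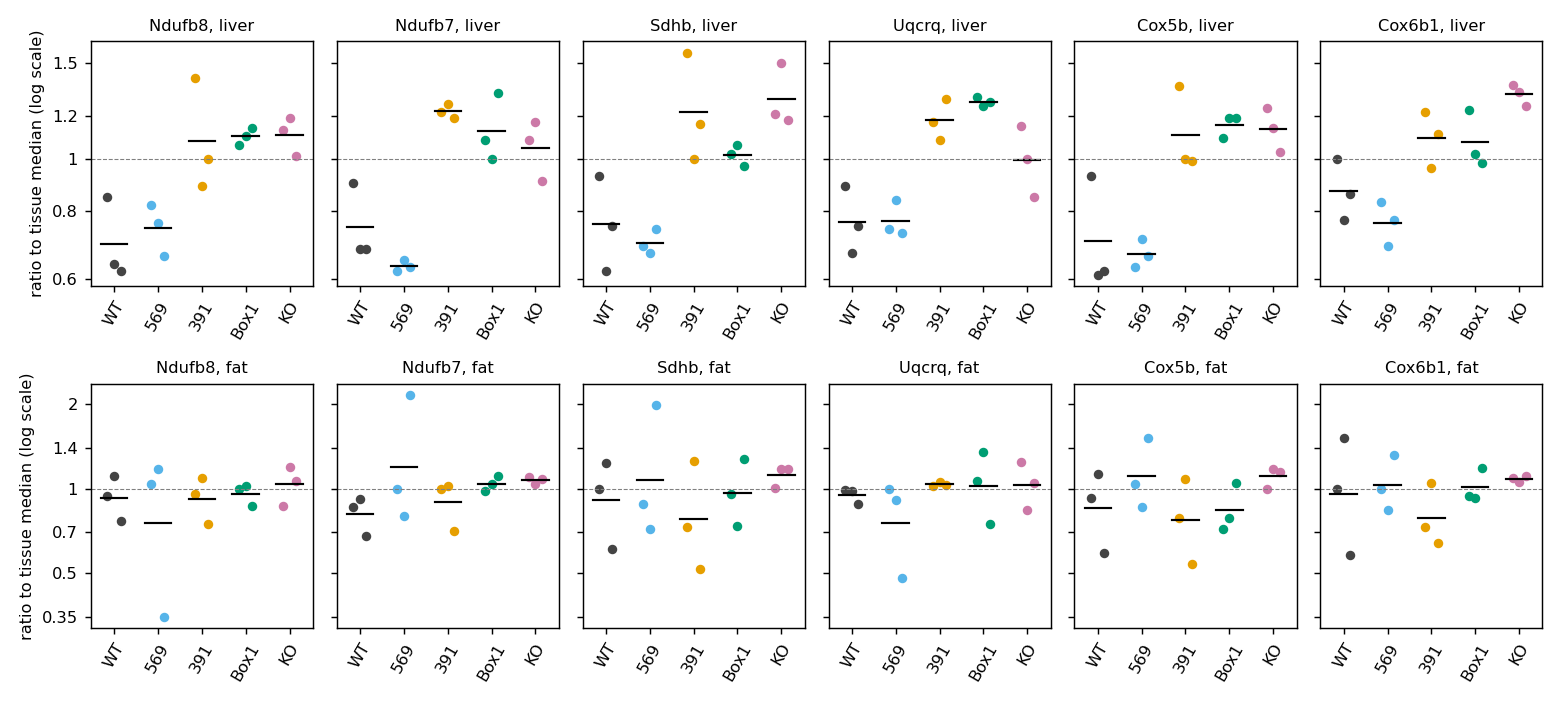
Ratio to the tissue median (log axis) of 6 called subunit genes in each array by genotype, liver above and fat below; points are arrays and lines are group means of the log2 ratio (n = 3). In liver the WT and 569 arrays sit at 1 or below for all 6 genes, and in fat 569 replicate 3 runs from 0.35 for Ndufb8 to 2.16 for Ndufb7 and is the highest or lowest array for every gene but Cox6b1.

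Each mutant was next set against WT alone. These comparisons share the 3 WT livers and so are not independent of each other. Counts from fits that left out arrays are given here without the share of all genes. With the 391 receptor 9 genes rose and none fell (2.47% of all genes were higher and 0.711% lower), the median difference was 0.32 against 0.04 over all genes, and 48 of 49 differences were positive. The called genes were Ndufa8 (0.82 ± 0.15), Ndufb7 (0.71 ± 0.12), Ndufa9 (0.70 ± 0.14), Sdhb (0.69 ± 0.16), Cox5b (0.65 ± 0.15), Ndufv1 (0.64 ± 0.14), Ndufb8 (0.63 ± 0.15), Uqcrq (0.62 ± 0.12) and Uqcrc1 (0.57 ± 0.13). In 19 genes every 391 array was above every WT array, which held for 11.9% of all genes. Without the 391 arrays with foreign transcripts the count was 14, of which 6 were among the 9, and the median was 0.59 from the single array left, whose spread was assumed to be that of the other groups. The count was 14 without WT replicate 1, 2 without WT replicate 2 or without WT replicate 3, and 3 without 391 replicate 1, and a fit of these 2 groups alone called none.

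With the Box1 receptor 4 genes rose and none fell (1.62% of all genes were higher and 0.484% lower), with a median of 0.37 and 48 of 49 differences positive. They were Uqcrq (0.74 ± 0.12), Cox5b (0.71 ± 0.15), Ndufb8 (0.66 ± 0.15) and Ndufb7 (0.59 ± 0.12). All 3 Box1 arrays were above all WT arrays in 23 genes, against 15.3% of all genes. The count was 10 without WT replicate 1, 1 without WT replicate 2, WT replicate 3, Box1 replicate 1 or Box1 replicate 3, and 2 without Box1 replicate 2. With the 391 arrays of foreign transcripts left out of the fit it was 7, and with the probes of a gene averaged it was 1.

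In the KO livers 5 genes rose and none fell (2.43% of all genes were higher and 0.871% lower), with a median of 0.30 and all 49 differences positive. They were Sdhb (0.77 ± 0.16), Cox5b (0.68 ± 0.15), Ndufb8 (0.67 ± 0.15), Ndufa9 (0.65 ± 0.14) and Cox6b1 (0.59 ± 0.12). All KO arrays were above all WT arrays in 20 genes, against 14.1% of all genes. The count was 11 without WT replicate 1, 0 without WT replicate 2, WT replicate 3 or KO replicate 2, 1 without KO replicate 1 and 3 without KO replicate 3. It was 8 without the 391 arrays of foreign transcripts and 3 with the probes of a gene averaged.

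Genotypes that shared a slide were compared next. Between 569 and WT limma called none of the 49 (0.0155% of all genes either way), and 4 had an unadjusted p under 0.05. Those were Cox4i1 (-0.25 ± 0.09), Ndufa7 (-0.33 ± 0.12), Sdhc (-0.35 ± 0.15) and Ndufa3 (-0.28 ± 0.12), each lower in 569. The median difference was -0.10 against -0.03 over all genes, and 38 of the 49 were negative. The median ran from -0.23 without WT replicate 2 to 0.03 without WT replicate 1, so a single array turned its direction, and it was -0.04 after quantile normalization. The half-widths of the 95% intervals had a median of 0.31.

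Between KO and 391 limma likewise called none of the 49 (0.325% of all genes either way), and 3 had an unadjusted p under 0.05. Ndufa8 differed by -0.51 ± 0.15, Cox4i1 by -0.29 ± 0.09 and Cox6b1 by 0.27 ± 0.12. The 3 KO arrays of Cox4i1 all lay below the 391 arrays, and those of Cox6b1 all above them. The median was -0.03 and became -0.23 with the single 391 array free of foreign transcripts.

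**Figure D3:**
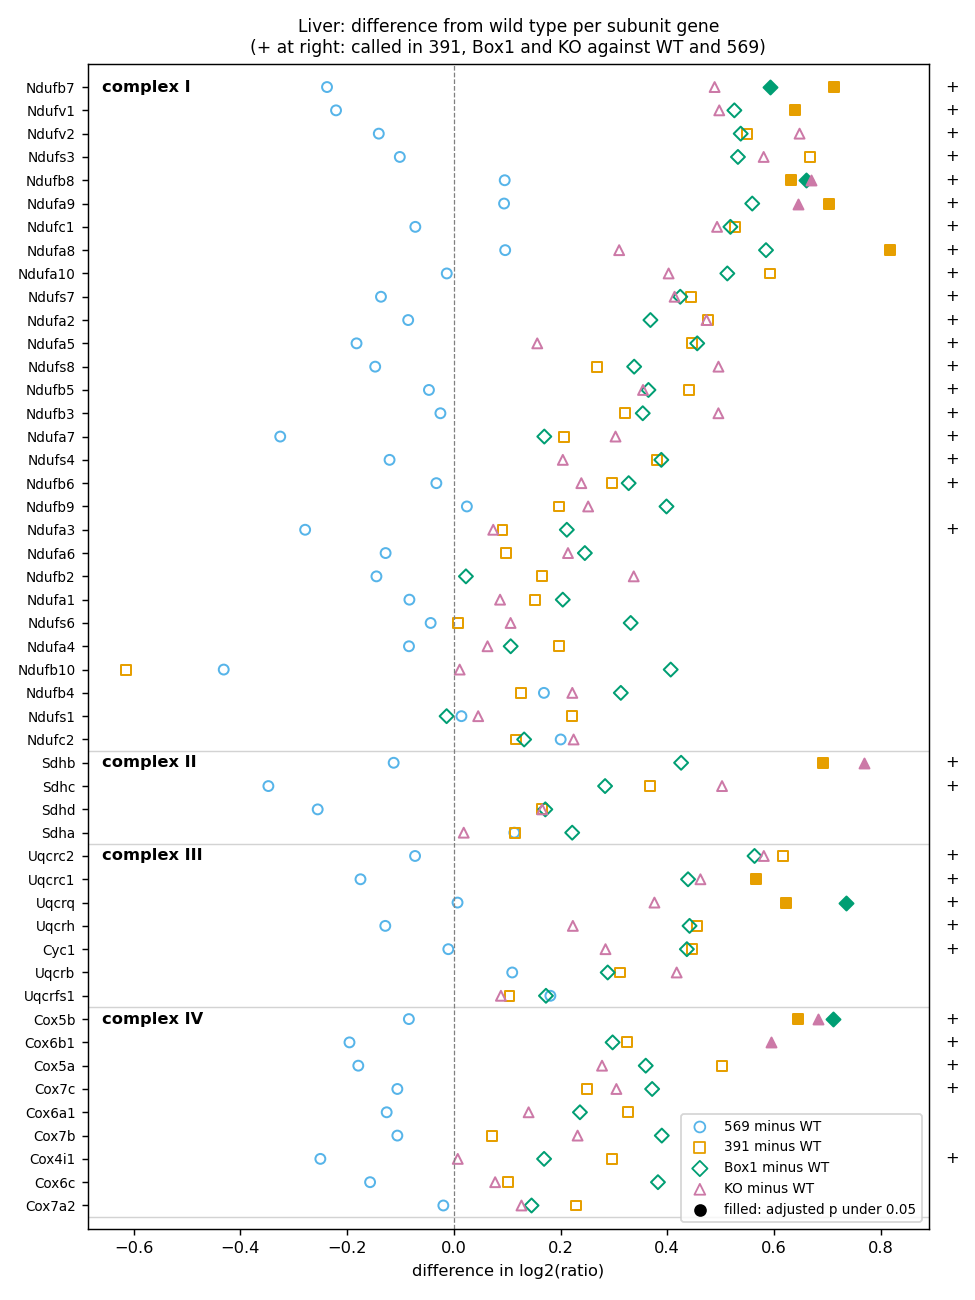
Difference in log2 ratio between each mutant and WT liver for the 49 subunit genes, ordered by complex; filled symbols have an adjusted p under 0.05, and a plus sign marks the 31 genes called in 391, Box1 and KO against WT and 569. Most 391, Box1 and KO points lie to the right of 0, with medians of 0.32, 0.37 and 0.30, and the 569 points lie around -0.10.

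After quantile normalization within tissue the rises of the liver subunits were smaller. The median difference of 391, Box1 and KO from WT and 569 became 0.29, and the median over all genes became -0.0049. Of the 31 called genes 27 remained, Ndufa3, Ndufb5, Ndufb6 and Ndufs4 did not, and 9.38% of all genes were then called higher. The counts against WT were 8 for 391, 6 for Box1 and 6 for KO, with medians of 0.25, 0.29 and 0.25, where 2.13%, 1.99% and 2.58% of all genes were higher. Cox5b was the gene that left the 391 list, while Ndufa8 and Ndufa9 joined that of Box1 and Ndufv2 that of KO.

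Probes of the same gene did not always move together. Of the 49 genes 19 had several probes, the probe that stood for the gene was called in 13 of these, and in 8 of the 13 no other probe was. Cox5b had a second probe that also rose, by 0.50 ± 0.08 (adjusted p = 0.0015), and another at -0.10 ± 0.06 (adjusted p = 0.431). The second probe of Ndufb8 rose by 0.45 ± 0.07 (adjusted p = 0.00092), and that of Cox6b1 by 0.46 ± 0.09 (adjusted p = 0.0036). The second probes of Sdhb (0.12 ± 0.10), Uqcrq (0.04 ± 0.09), Ndufs3 (0.10 ± 0.11) and Ndufv2 (0.13 ± 0.07) were not called, and those of Ndufc1 (-0.03 ± 0.06) and Sdhc (-0.05 ± 0.09) were opposite in sign. Where each probe lies in its transcript is not known here. Averaging the probes of a gene again gave 31 called genes, 30 of them the same, with Cox6a1 in place of Ndufa5.

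Other genes of the mitochondrion moved in the same liver comparison, in which 13.9% of all genes were called higher and 1.36% lower. The ATP synthase uses the proton gradient the chain builds. Among the 15 measured genes listed as its subunits, with its inhibitor Atpif1 counted among them, 13 rose, with a median of 0.47. Atp5a1 rose by 0.81 ± 0.12 (adjusted p = 0.000599), Atpif1, the inhibitor of the enzyme, by 0.69 ± 0.11 (adjusted p = 0.0012) and Atp5g1 by 0.65 ± 0.11 (adjusted p = 0.0013). Of 17 genes of the citric acid cycle and pyruvate dehydrogenase, which supply the chain with NADH and succinate, 15 rose, with a median of 0.61. Fh1 (0.80 ± 0.18), Suclg2 (0.75 ± 0.08) and Idh3a (0.74 ± 0.10) were the largest.

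Of 16 further chain subunits, isoforms among them, 9 rose (13.9% of all genes were higher), with a median of 0.41. Uqcr11, a small subunit of complex III, rose by 0.63 ± 0.08 (adjusted p = 0.00015). Cox6b2, known from testis, rose by 1.35 ± 0.18 (adjusted p = 0.00026). Cox7a1, the isoform of heart and muscle, rose by 1.22 ± 0.22 (adjusted p = 0.0021). Its ratios were 0.78, 0.56 and 0.65 in WT, 0.67, 0.50 and 0.63 in 569, 1.90, 2.48 and 0.84 in 391, 1.26, 1.76 and 1.28 in Box1, and 1.18, 2.21 and 1.0 in KO. The groups did not overlap, and the muscle markers of the list were near 1 in every one of these livers but 391 replicate 2, where Cox6a2, the muscle isoform, stood at 18.81.

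Assembly factors, which build the complexes, rose in 19 of 36 genes and fell in 1, with a median of 0.30. Over all genes 13.9% were higher and 1.36% lower. Cox10, an enzyme of heme synthesis for complex IV, rose by 0.76 ± 0.08 (adjusted p = 3.15e-05). Regulators of mitochondrial biogenesis rose in 9 of 19, with a median of 0.30. The nuclear receptor Esrrg rose by 1.06 ± 0.10 (adjusted p = 1.49e-05), the coactivator Ppargc1b by 0.77 ± 0.12 (adjusted p = 0.001) and Polg2, a subunit of the mitochondrial DNA polymerase, by 0.55 ± 0.08 (adjusted p = 0.000524). Among factors whose letters were sought in the promoters, Esrra rose by 0.43 ± 0.09 (adjusted p = 0.0049). Nrf1 (0.07 ± 0.07, adjusted p = 0.702) and Gabpa (0.13 ± 0.08, adjusted p = 0.43) were not called. Mitochondrial ribosomal proteins rose in 32 of 76 genes, with a median of 0.26.

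Genes from outside the mitochondrion were read in the same comparison, against the same 13.9% of all genes called higher. Cytosolic ribosomal proteins rose in 37 of 71 genes, with a median of 0.29, and core subunits of the proteasome in 4 of 14, with a median of 0.24. Without the 391 arrays with foreign transcripts, where 16.6% of all genes were higher, 8 of the 16 further chain subunits rose, 13 of 15 ATP synthase subunits, 15 of 17 citric acid cycle genes, 22 of 36 assembly factors, 10 of 19 regulators, 42 of 76 mitochondrial ribosomal, 43 of 71 cytosolic ribosomal and 10 of 14 proteasome genes. Their part in the result for the 49 subunits was not tested. All of these lists were chosen with earlier results of these data known.

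**Figure D4:**
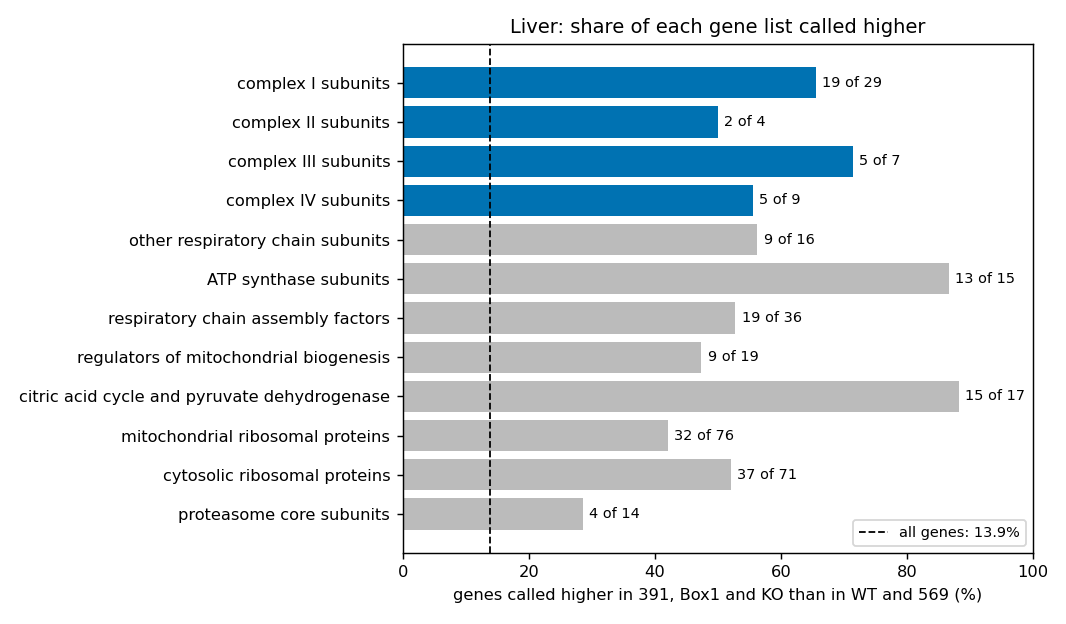
Share of each gene list called higher in the livers of 391, Box1 and KO than in those of WT and 569, in percent, with the number called of the number measured beside each bar; blue bars are the 4 complexes and the dashed line is the 13.9% of all genes. The 4 complexes range from 2 of 4 to 5 of 7, the cytosolic ribosomal list stands at 37 of 71 and the citric acid cycle list at 15 of 17.

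In subcutaneous fat limma called none of the 49 genes in any of the 6 comparisons. The share of all genes called either way was also small, 0 for 569 against WT, 0.0206% for 391, 0.00515% for Box1, 0 for KO, 0.0309% for KO against 391 and 0.0412% for 391, Box1 and KO against WT and 569. The members with an unadjusted p under 0.05 numbered 0, 1, 1, 1, 2 and 8 in the same order. The median differences were 0.39, -0.12, 0.04, 0.11, 0.26 and -0.15. Single arrays turned the direction of 3 of them: 391 ran from -0.39 without WT replicate 3 to 0.06 without WT replicate 2, Box1 from -0.23 to 0.18 and KO from -0.12 to 0.31 without the same arrays. That of 569 fell to 0.09 without 569 replicate 3. After quantile normalization the 569 median was 0.23 and the 391 median -0.20. A test for any difference among genotypes called none either (0.0258% of all genes), with 2 at an unadjusted p under 0.05. The half-widths of the 95% intervals had a median of 0.60 for comparisons with WT, wider than the 0.31 of liver.

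The spread among fat arrays of a genotype was large. In WT the median log2 ratio of the 49 genes was 0.00, 0.32 and -0.51. In replicate 2, 47 of the genes lay above the tissue median, and in replicate 3, 47 lay below it. The 391 medians were -0.23, 0.07 and -0.43, the Box1 medians -0.10, -0.15 and 0.07, and the KO medians 0.00, 0.12 and 0.10. In 569 they were 0.12, -0.04 and 0.86, so replicate 3 stood above all other fat arrays.

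In 569 replicate 3, 18 of the 49 genes were above a ratio of 2, and in no other array of either tissue was any. Ndufb5, a complex I accessory subunit, reached 4.66, Ndufb9 3.90 and Cox5a 3.13. The probes that stood for Ndufb8, Uqcrq and Cox6a1 went the other way in that array, at 0.35, 0.48 and 0.11. The second probe of Cox6a1 was also low there, at 0.12. Those of Ndufb8 and Uqcrq stood at 1.68 and 0.94, so for these genes the low value was on 1 probe only. Cox6a1 is the general isoform of a subunit whose muscle isoform is Cox6a2, and Cox6a2 stood at 40.7 there. Cox6a2 was also high in Box1 replicate 3 (18.13), 569 replicate 1 (10.13) and KO replicate 2 (5.48). Cox6a1 stood at 0.98, 1.0 and 1.31 in those arrays, and a link between the isoforms was not tested.

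Muscle transcripts were also high in 569 replicate 3. All 14 measured skeletal muscle markers were raised above a log2 ratio of 1 in 569 replicate 3, with Myh4 at 168.6 and Ckm at 58.78, and the fat marker Adipoq was at 0.21. Across the fat arrays the mean ratio of the 14 markers ran from 0.26 to 0.35 in WT, 0.25 to 48.5 in 569, 0.97 to 3.19 in 391, 0.33 to 21.6 in Box1 and 0.69 to 12.5 in KO. Their median log2 ratio was above 3 in 569 replicates 1 and 3, Box1 replicate 3 and KO replicate 2. The subunit medians of those arrays other than 569 replicate 3 were 0.12, 0.07 and 0.12. With these 4 arrays left out, the median difference between 569 and WT was -0.03 in place of 0.39, that of 391, Box1 and KO from WT and 569 was -0.01 in place of -0.15, and again no member was called. The 569 group was then replicate 2 alone, whose spread was assumed to be that of the other groups.

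**Figure D5:**
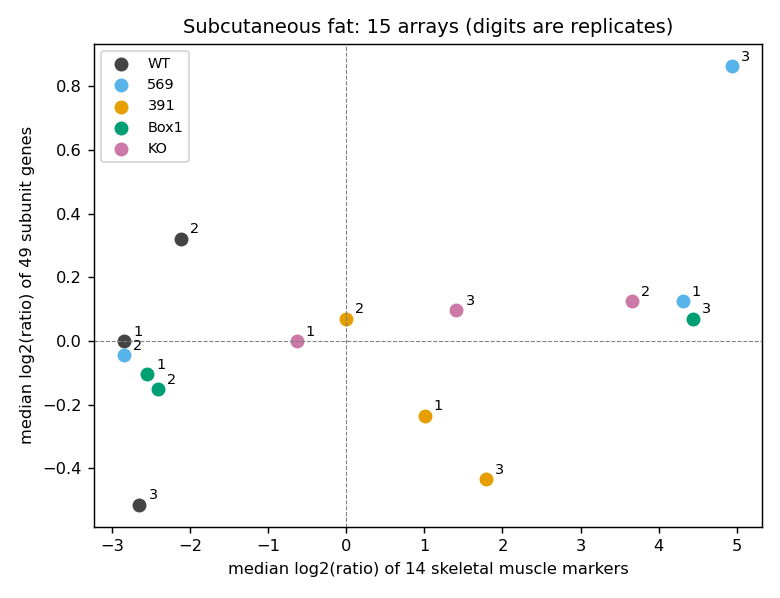
Median log2 ratio of the 49 subunit genes against that of 14 skeletal muscle markers in the 15 subcutaneous fat arrays, coloured by genotype with the replicate beside each point. 569 replicate 3 is alone at the upper right, with a subunit median of 0.86, while the other 3 arrays with muscle medians above 3 have subunit medians of 0.07 to 0.12.

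Markers of other cells varied in the fat as well. The mean ratio of the 9 lymphocyte markers lay between 0.26 and 1.89, and it was under 0.34 in 7 arrays. Among the 7 were all 3 of 569, Box1 replicate 3 and KO replicate 2. All 4 arrays with high muscle markers, 569 replicates 1 and 3 included, were thus among them, and the rest of the 7 had no high muscle markers. The brown fat marker Ucp1, whose cells are packed with mitochondria, reached 7.80 in WT replicate 1 and 13.94 in 391 replicate 2. The subunit medians of those arrays were 0.00 and 0.07, and the part of these cells in the subunit values was not tested.

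Cox5b, the largest rise in liver, overlapped between all genotypes in fat. Its ratios were 0.93, 1.13 and 0.59 in WT, 1.04, 0.86 and 1.52 in 569, 0.79, 1.08 and 0.54 in 391, 0.72, 0.79 and 1.05 in Box1, and 1.0, 1.18 and 1.15 in KO. Its difference between 391, Box1 and KO and the other pair was -0.12 ± 0.19 (adjusted p = 0.883), where the liver gave 0.72 ± 0.10. Sdhd had the lowest unadjusted p of the members in fat, 0.0013, with a difference of -0.71 ± 0.17 (adjusted p = 0.249). Its ratios were 1.35, 1.62 and 0.83 in WT, 1.44, 1.23 and 2.37 in 569, and 0.66 to 1.06 in the other 9 arrays, so the 569 arrays lay above all 9 and WT replicate 3 lay among them. Ndufc2 was next, at -0.48 ± 0.12 (adjusted p = 0.252).

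The difference between tissues was tested itself, with all 30 arrays in a single fit. Liver and fat arrays were treated as independent, since whether they came from the same animals is not stated. The 391 livers with foreign transcripts and the 4 fat arrays with high muscle markers were part of this fit. For 391, Box1 and KO against WT and 569, the liver difference exceeded that of fat in 48 of the 49 genes, by a median of 0.59. In all 2 genes were called (0.917% of all genes were higher and 0.52% lower), and 36 had an unadjusted p under 0.05. Ndufv1 differed by 0.77 ± 0.18 (adjusted p = 0.0387), from 0.66 in liver and -0.11 in fat. After quantile normalization within tissue it was 0.65 ± 0.20 (adjusted p = 0.122) and no longer called, while Ndufs7 was called beside Sdhd. Sdhd differed by 1.01 ± 0.24 (adjusted p = 0.0443), from 0.30 in liver, where it was not called, and -0.71 in fat. These calls depended on single arrays: the count ran from 0 to 15 over the 30 fits that left out an array, and was 15 without fat WT replicate 3, 14 without fat 569 replicate 2 and 0 in 18 of the 30.

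For each mutant against WT no member was called in the same test, with 6 at an unadjusted p under 0.05 for 569, 7 for 391, 7 for Box1 and 0 for KO. The medians of the liver difference minus the fat difference were -0.46 for 569, 0.53 for 391, 0.37 for Box1 and 0.25 for KO. In fat alone the 569 median of 0.39 became 0.09 without 569 replicate 3, an array with high muscle markers. The value of -0.46 includes that array. The share of all genes called either way was 0 for 569, 0.366% for 391, 0.278% for Box1 and 0.541% for KO.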

How the data were processed

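Total RNA of frozen liver and subcutaneous fat was biotin-labelled and hybridised to Illumina bead arrays, per the labels. The deposited values are ratios, to 2 decimals, in which the 15 arrays of a tissue have a median of 1 for every probe, as the values themselves show. How the authors treated background and normalized the arrays is not given in the sources used here. Array medians were 0.98 to 1.01, and with 3 arrays a group their number limits the precision. Probes were named by the platform annotation, which gave 1 symbol for 32794 of 46643. Log2 ratios were fitted with limma 3.58.1 in R 4.3.3, with the 5 genotypes of a tissue in a single fit, and liver and fat were set against each other in a fit of all 30 arrays. Adjusted p-values are limma's, with Benjamini-Hochberg adjustment across every probe, and the scripts were tested on simulated data. The genes named were 11 fixed subunits, every called member of a comparison (at most 12), the largest differences of a complex, members whose probes differed in sign, and up to 3 called genes of each other list. The members and lists were chosen with earlier results of these data known. Alternatives were other scalings, an offset of 0.1, averaged probes, named probes only, array weights, fits of 2 groups, and leaving out arrays. The fat arrays rich in muscle transcripts were left out as an alternative chosen after seeing the data.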

Additional observations from a re-analysis of the deposited data

Results flagged for a closer look

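The tissues differed for 2 subunit genes in the comparison of 391, Box1 and KO with WT and 569, by the test of the liver difference minus the fat difference in limma's fit of all 30 arrays. Ndufv1 gave 0.77 ± 0.18 on the log2 scale (limma adjusted p = 0.0387), and Sdhd gave 1.01 ± 0.24 (limma adjusted p = 0.0443). After quantile normalization within tissue Ndufv1 was no longer called (0.65 ± 0.20, limma adjusted p = 0.122), and Sdhd gave 0.94 ± 0.22 (limma adjusted p = 0.0333). Slide and genotype cannot be told apart in either tissue, and the number of such genes ran from 0 to 15 when single arrays were left out. The 391 livers with foreign transcripts and the 4 fat arrays with high muscle markers were part of the fit. It was not run without either of these sets.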

How the results depend on the processing

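No paired analysis was possible because the labels give no replicate numbers. The replicate numbers used here follow the order in which the arrays were listed and link no liver to a fat array. Quantile normalization, centring each array, an offset of 0.1 and named probes only were judged on 31 results, counts and medians together. None of these settings moved a count by over 1.5 times or a median by over 1 SD, though single calls changed. The other alternatives moved results as follows, and the share of all genes called in these fits is not given here. A fit of only the groups compared gave 0 called subunit genes for 391 against WT in liver and 1 (Ndufb10) for KO against 391 in fat. Without the 2 liver 391 arrays with foreign transcripts the counts were 14 for 391, 7 for Box1 and 8 for KO, and the medians 0.59 for 391 against WT and -0.23 for KO against 391. Averaged probes gave 1 for Box1 and 3 for KO, and array weights gave 4 for the difference between tissues. Leaving out single arrays gave 2 to 14 genes for 391, 1 to 10 for Box1, 0 to 11 for KO, 0 to 1 for KO against 391 in liver, 12 to 23 for any genotype in liver and 0 to 15 for the difference between tissues; the count for 391, Box1 and KO against WT and 569 in liver ran from 26 to 38. No direction of a called value reversed in the alternatives run. The cause of these changes was not tested. Signal over background cannot be read from ratios.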
